A study of Mus musculus with 6 samples.

Results

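The 6 libraries of RNA from small extracellular vesicles were ordered by 1 entry, Gm23935 (ENSMUSG00000076258), and split into 3 libraries rich in it and 3 poor in it. Ranked by the FPKM of Gm23935 (fragments per kilobase of gene length and relative to all fragments counted), the rich libraries were OGD/R 1, OGD/R 3 and control 1, and the poor ones OGD/R 2, control 2 and control 3. All 6 libraries of the series thus fall on 1 of the sides. The sides were chosen by measured values of these libraries, so differences between them are a description and carry no test. The lowest rich library, control 1, listed 755524 FPKM of Gm23935, and the highest poor library, OGD/R 2, listed 342959 FPKM, a gap of 2.20 times, while the first and the last library differed 167 times.

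The vesicles came from embryonic cortical neurons of WT mice, and the labels give 2 treatments with 3 libraries each, control and OGD/R, a name they do not spell out. The series text calls one kind of neuron hypoxic and the other normoxic. Total RNA was taken up in Trizol. Nothing in the labels says that the libraries of a treatment came from separate cultures, so the spread behind each p-value may be technical. The rich side held OGD/R libraries 1 and 3 with control library 1, and the poor side held controls 2 and 3 with OGD/R library 2, so the sides crossed the labels with 2 libraries to 1.

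Cells release small extracellular vesicles, which are enclosed by a membrane, and RNA prepared from them often holds pieces of ribosomal and mitochondrial RNA beside messenger RNA. Ribosomal RNA is copied from repeated genes, and assembled genomes and annotations carry scattered stretches that resemble it or other repeats. A fragment from a repeat can be counted on such a stretch. FPKM divides by gene length and by the library's total, so 1 abundant short entry takes a very high FPKM and lowers all other values.

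Gm23935 is annotated as a microRNA gene of 57 bases on the plus strand of chromosome 16, from 11144125 to 11144181 (GRCm38), inside an intron of Zc3h7a, a gene of the other strand. The sequences of Gm23935 and of those copies that differ from it are shown because the copies decide how its fragments can be assigned. Capitals mark bases that differ from Gm23935, with positions counted from 1 at the 5′ end.
Gm23935: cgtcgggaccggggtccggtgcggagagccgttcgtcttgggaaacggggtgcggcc
Gm25911: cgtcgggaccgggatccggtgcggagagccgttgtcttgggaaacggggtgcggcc
Gm24187: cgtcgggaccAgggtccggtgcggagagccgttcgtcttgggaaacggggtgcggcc
Gm23388: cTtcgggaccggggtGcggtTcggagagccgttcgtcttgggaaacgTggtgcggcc
Gm24187 differed by G11A and Gm23388 by G2T, C16G, G21T and G48T. Gm25911 had 56 bases and is shown without capitals. Gm24270 and Gm24245 had the same 57 bases as Gm23935. The sequences are those of GENCODE M21. Among 55450 genes there, the 5 copies and no other gene shared a stretch of 20 bases with Gm23935 on either strand. No ribosomal RNA repeat was among the references used here, so likeness of Gm23935 to ribosomal RNA was not tested.

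Gm23935 held 49.5% of the fragments on genes in OGD/R 1, 24.4% in OGD/R 3 and 4.31% in control 1. On the poor side it held 1.95% in OGD/R 2, 0.554% in control 2 and 0.297% in control 3. These shares ordered the libraries and are given as description only. Gm24270, with the same sequence, was counted 161, 144 and 71 times in OGD/R 1, OGD/R 3 and control 1, and 86, 17 and 34 times in OGD/R 2, control 2 and control 3. The ratio of Gm23935 to Gm24270 was 6583 in OGD/R 1 and 130 in control 3, so entries with identical letters did not keep 1 ratio. How the authors placed fragments that match several copies is not given in the sources used here. Gm25911 followed the ranking, from 1822 fragments in OGD/R 1 to 23 in control 3. Gm23388 was listed at 0 in all 6 libraries.

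For all other genes the family, which is Gm23935 and its 5 copies, was left out of each library's total, and values below are FPKM rescaled to the remaining fragments. Fragments were read from the steps between FPKM values. The rich libraries had 997818 to 1079637 fragments outside the family and the poor libraries 1405452 to 1489974, so the rich side was also the shallower one.

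The rich libraries held fewer different genes. Each library was thinned to 1007201 recovered fragments, the sum over genes in OGD/R 3, the shallowest library, which is slightly above its estimated total of 997818 because some gene lengths did not match, so that library itself was not thinned. OGD/R 1, OGD/R 3 and control 1 held a fragment of 34521, 36500 and 37102 genes, and OGD/R 2, control 2 and control 3 of 40153, 41072 and 41838. The sides did not overlap, and OGD/R was the lower label within each side. Of the compared genes, those with a mean of at least 1 FPKM, 23.1%, 19.4% and 17.7% were listed at 0 in the rich libraries and 10.1%, 8.20% and 6.75% in the poor ones, in the same order; this share was taken at full depth. The 100 highest genes held 10.6%, 13.4% and 8.30% of the fragments outside the family in the rich libraries, and 5.67%, 5.62% and 4.96% in the poor ones. Without 3 groups described next (rRNA-overlapping entries, the Gm10800 family and mitochondrial genes), the highest 100 held 4.2%, 4.55% and 5.33% in the rich and 3.13%, 5.40% and 3.63% in the poor libraries, and the sides overlapped.

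**Figure D1:**
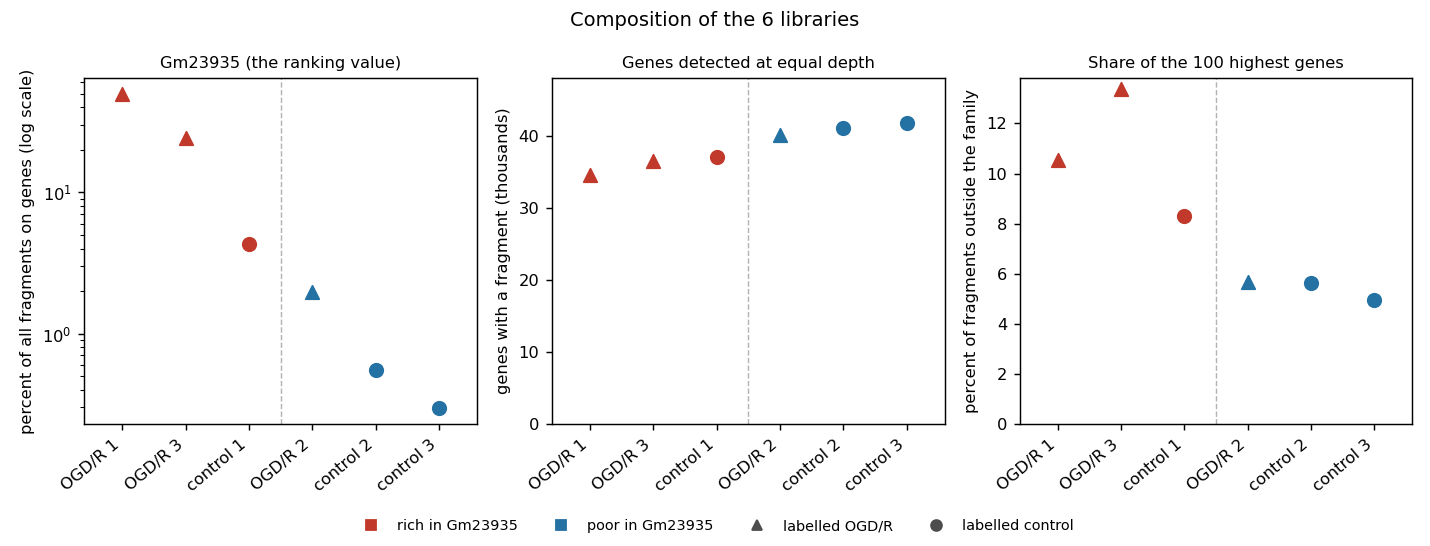
Each panel plots 1 value for each of the 6 libraries, triangles for OGD/R and circles for control, red for libraries rich in Gm23935 and blue for poor ones: the Gm23935 share of all fragments (percent, log axis), the genes with a fragment after thinning to equal depth, and the share of the 100 highest genes (percent). The rich libraries sit at 34521 to 37102 genes and the poor ones at 40153 to 41838.

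Of 44120 genes compared, 2462 (5.58%) were higher in all 3 rich than in all 3 poor libraries, and 6097 (13.8%) were lower. The median difference, rich minus poor on the log2(FPKM + 1) scale, was -0.30. Among 16753 genes with a mean of at least 20 fragments, 1625 (9.70%) were higher and 2478 (14.8%) lower, with a median of -0.12. The balance of higher and lower genes rested on the scaling: centring each library on its median gave 5335 higher and 3679 lower genes, and the deposited FPKM gave 673 and 10119. The direction of the 5 most abundant genes outside the family and of the 20 genes named for their difference was the same under these scalings. Medians of several other lists turned. For example, with the deposited FPKM those of pan-neuronal markers, vesicle proteins and progenitor genes went from 0.11, 0.10 and 0.11 to -0.31, -0.32 and -0.29, and with centred libraries those of glycolytic enzymes, hypoxia targets and microglia markers from -0.06, -0.04 and -0.11 to 0.23, 0.25 and 0.18.

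Most compared entries of the list named rRNA-overlapping were more abundant on the rich side. The name is that of the list. Overlap with ribosomal RNA sequence was not tested, as no ribosomal RNA repeat was among the references used here. By annotation, Gm42418 shares exon bases with CT010467.1, which is annotated as ribosomal RNA. Mir6236, Lars2 and Gm26917 share exon bases with no other gene. Ribosomal RNA forms the core of the ribosome. Of 6 listed entries 5 were compared, 4 of them higher without overlap and 0 lower, against 5.58% and 13.8% of all genes (2 higher and 1 lower with the deposited FPKM). Together they held 1.83%, 5.02% and 1.70% of fragments outside the family in OGD/R 1, OGD/R 3 and control 1, and 0.809%, 0.202% and 0.902% in OGD/R 2, control 2 and control 3. Control 2 was the lowest, and the sides did not overlap. The exact permutation test of OGD/R (2.55% ± 2.20, SD, n = 3) against control (0.935% ± 0.749) gave p = 0.3.

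Gm42418, a long non-coding RNA gene on chromosome 17 from 39846958 to 39848788, had 6745, 24171 and 7392 rescaled FPKM in OGD/R 1, OGD/R 3 and control 1. In OGD/R 2, control 2 and control 3 it had 3188, 485 and 3856. Its sides did not overlap, OGD/R 3 stood far above the other libraries, and the mean log2 difference was 2.55. It shares exon bases with AY036118 and CT010467.1 on the opposite strand, and whether the counting used strand is not given in the sources used here.

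Mir6236, a microRNA gene on chromosome 9 from 110281287 to 110281409, had all 3 rich libraries well above the poor ones. It reached 14315, 11171 and 9846 rescaled FPKM in OGD/R 1, OGD/R 3 and control 1, against 2415, 619 and 153 in OGD/R 2, control 2 and control 3, a log2 difference of 4.25. Its mature sequence in RefSeq is shown to let its letters be compared with the family above, with the seed (bases 2 to 8) in capitals.
Mir6236 mature: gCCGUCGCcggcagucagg
The gene model counted is the hairpin of 123 bases, not the mature form.

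Lars2, the mitochondrial leucyl-tRNA synthetase gene, and Gm26917, a long non-coding RNA gene, were higher by 1.77 and 1.07 on the log2 scale, without overlap. Lars2 had 307, 644 and 233 rescaled FPKM in OGD/R 1, OGD/R 3 and control 1, and 199, 43.1 and 133 in OGD/R 2, control 2 and control 3. CT010467.1, annotated as ribosomal RNA, did not share the pattern. It had 90.02 to 135 in the rich and 119 to 213 in the poor libraries, with overlap.

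The 5S ribosomal RNA genes as a list lay near the background. This small RNA of the large ribosomal subunit is made by RNA polymerase III from tandem genes, and the annotation holds many scattered copies. Of 182 listed copies 126 were compared, with 8 higher and 13 lower without overlap (6.35% and 10.3%, against 5.58% and 13.8% of all genes; 21 and 12 with centred libraries). Their median of 1.67 fragments per library makes single copies imprecise. The copies n-R5s194 and n-R5s155 had the largest differences of the genes named by rule (well covered, without overlap and without a predicted name), and their sequences are shown in lower case.
n-R5s194: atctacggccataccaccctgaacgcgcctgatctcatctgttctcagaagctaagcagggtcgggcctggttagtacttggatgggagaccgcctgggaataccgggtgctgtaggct
n-R5s155: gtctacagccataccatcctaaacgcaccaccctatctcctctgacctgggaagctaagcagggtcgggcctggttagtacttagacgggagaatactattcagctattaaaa
n-R5s194 was counted 89, 84 and 27 times in OGD/R 1, OGD/R 3 and control 1 and 2 times in each poor library. It has 68 near-identical copies (at least 90% alike over 80% of the length), so where its fragments belong is uncertain. n-R5s155, which has 0 such copies, was counted 127, 192 and 120 times in OGD/R 1, OGD/R 3 and control 1. In OGD/R 2, control 2 and control 3 it was counted 11, 7 and 3 times, a log2 difference of 4.97.

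The Gm10800 family was more abundant on the rich side and, within each side, in OGD/R. Many of these predicted protein-coding genes are near-identical to each other. Gm10800 and Gm10801 lie on chromosome 2 from 98666547 to 98667301 and from 98662237 to 98664083. Of 12 listed genes 11 were compared, all with a positive difference, 6 of them higher without overlap, and the median was 2.12 against -0.30 over all genes. The family held 4.57%, 3.82% and 1.54% of fragments outside the Gm23935 family in OGD/R 1, OGD/R 3 and control 1, and 1.90%, 0.214% and 0.619% in OGD/R 2, control 2 and control 3. Control 1 was below OGD/R 2, so the sides overlapped, while all OGD/R libraries were above all controls.

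Gm10800 had 57842, 47514 and 18615 rescaled FPKM in OGD/R 1, OGD/R 3 and control 1, and 25020, 2494 and 7611 in OGD/R 2, control 2 and control 3. Gm10801 had 9703, 7870 and 4001 against 2988, 601 and 1384, without overlap. Gm10722, on chromosome 9 from 3000922 to 3002330, had 1845, 2428 and 751 against 744, 141 and 391, also without overlap. In 10 of the 11 compared genes OGD/R was above control on both sides, a pattern that 10.1% of all genes showed, while 11.9% showed the opposite. Gm10800 has 10 near-identical copies and Gm10722 has 11, so fragments may be split among them, and these genes are not counted as separate observations.

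The share of the family was 3.43% ± 1.37 in OGD/R and 0.789% ± 0.678 in control (SD, n = 3; exact permutation test, two-sided, p = 0.1, the smallest that 3 against 3 can give, and 0.4 after Benjamini-Hochberg adjustment over 10 library measures). Within the rich side OGD/R was 2.66 percentage points above control 1, and within the poor side OGD/R 2 was 1.49 above the mean of the controls.

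Mitochondrial RNA was also more abundant in all OGD/R libraries than in all controls. The mitochondrial genome is copied from both strands into long precursors, and most of its messenger RNAs and both ribosomal RNAs come from 1 strand, while mt-Nd6 and a few tRNAs come from the other. Genes of the mitochondrial genome held 0.375%, 0.437% and 0.102% of fragments outside the family in OGD/R 1, OGD/R 3 and control 1, and 0.107%, 0.0164% and 0.0119% in OGD/R 2, control 2 and control 3. Control 1 and OGD/R 2 were at almost the same level. OGD/R had 0.306% ± 0.175 and control 0.0433% ± 0.0506 (SD, n = 3; exact permutation test, p = 0.1, adjusted 0.4).

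**Figure D2:**
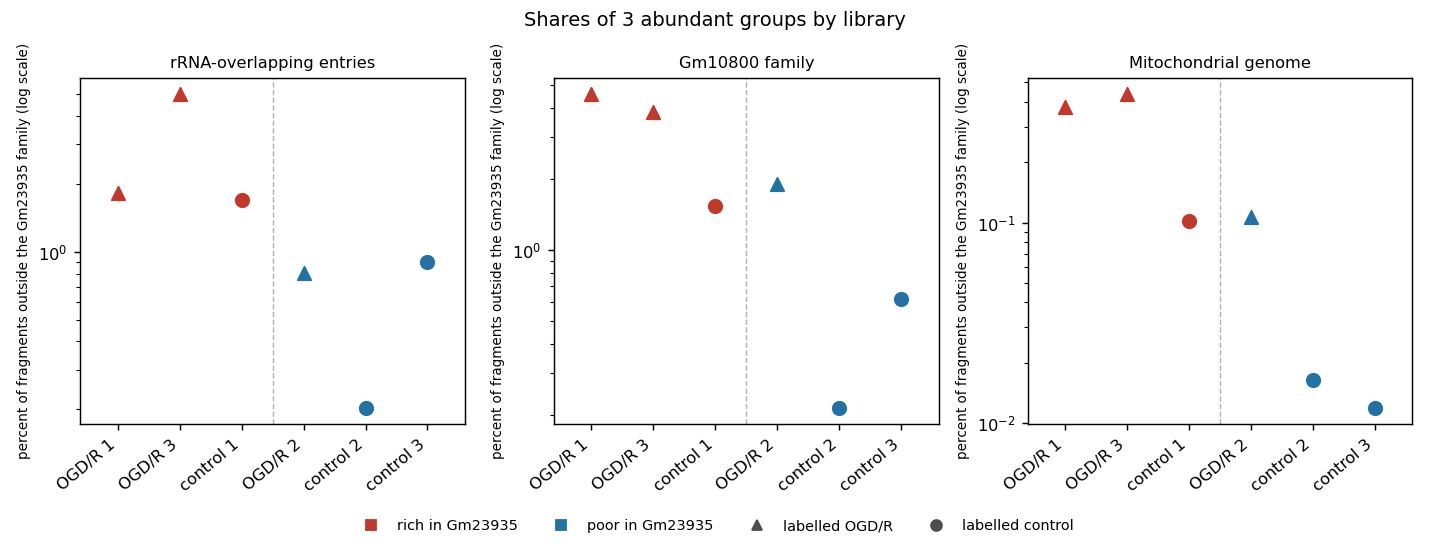
The panels plot the share of fragments outside the Gm23935 family (percent, log axis) held by rRNA-overlapping entries, the Gm10800 family and the mitochondrial genome in each library, triangles for OGD/R and circles for control, red for rich and blue for poor. In the first panel the sides separate, at 1.70% and above against 0.902% and below, and in the other panels control 1 lies at or below OGD/R 2.

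Genes annotated on the strand with fewer genes held most mitochondrial fragments in 5 of the 6 libraries. Whether the counting used strand is not given in the sources used here, so the strand of the RNA itself was not tested. Of 37 mitochondrial genes, the 9 annotated on the minus strand held 84.4%, 86.3% and 79.96% of mitochondrial fragments in OGD/R 1, OGD/R 3 and control 1. They held 79.3% in OGD/R 2, 26.5% in control 2 and 67.8% in control 3. Control 2, the exception, had 230 mitochondrial fragments and control 3 had 177, against 1063 to 4357 in the other libraries. Fragments on the minus-strand genes were 3162, 3769 and 813 per 1000000 fragments outside the family in OGD/R 1, OGD/R 3 and control 1, and 845, 43.4 and 80.5 in OGD/R 2, control 2 and control 3. On the 28 plus-strand genes they were 586, 597 and 204 against 221, 120 and 38.3. The range over libraries was thus wider for the minus-strand genes.

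mt-Nd6, a subunit of respiratory complex I, was the main source of these minus-strand counts. It shares exon bases with mt-Nd5 on the opposite strand and has 1 near-identical copy, so where its fragments belong is uncertain. It lies on the minus strand of the mitochondrial genome from 13552 to 14070 and took 75.0%, 74.4% and 65.9% of mitochondrial fragments in OGD/R 1, OGD/R 3 and control 1. It was counted 3034, 3241 and 700 times there, and 952, 46 and 102 times in OGD/R 2, control 2 and control 3. In rescaled FPKM control 1 (1290) and OGD/R 2 (1294) did not differ beyond their counting error, and the log2 difference of the sides was 3.98. mt-Tp, a transfer RNA on the same strand, was counted 141, 158 and 70 times against 63, 3 and 6, and did not overlap after rescaling.

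Of the 13 mitochondrial messenger RNAs 7 were compared, all with a positive difference (4 of 7 with the deposited FPKM), and only mt-Cytb, a subunit of complex III, was higher without overlap (44.5, 31.5 and 27.6 rescaled FPKM in OGD/R 1, OGD/R 3 and control 1, against 18.5, 6.22 and 3.52). That is 1 of 7 higher, against 5.58% of all genes. In 6 of the 7, all but mt-Co1, OGD/R was above control on both sides, against 10.1% of all genes. Of these, mt-Nd1, mt-Nd2 and mt-Nd4 averaged only 10.5, 6.17 and 6.17 fragments per library. Mitochondrial messenger RNAs come from shared precursors, so these genes are not counted as separate observations. mt-Rnr2, the large mitochondrial ribosomal RNA, had 187, 237 and 58.7 rescaled FPKM in the rich libraries and 27.7, 31.9 and 4.67 in the poor ones. It did not overlap, with a log2 difference of 2.99. mt-Rnr1, the small one, had 42.7, 54.6 and 29.0 against 45.8, 9.69 and 12.7, and overlapped.

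**Figure D3:**
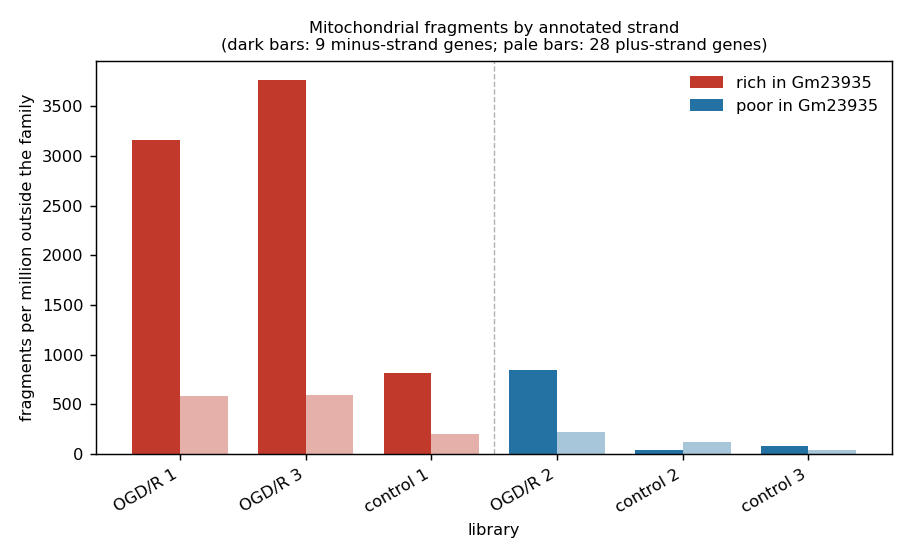
Bars give mitochondrial fragments per 1000000 fragments outside the Gm23935 family in each library, dark for the 9 genes on the minus strand and pale for the 28 on the plus strand, red for rich and blue for poor libraries. The minus-strand bars run from 43.4 in control 2 to 3769 in OGD/R 3.

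Other small RNAs gave few fragments. Of 8 compared RNAs made by RNA polymerase III 2 were higher and 1 lower without overlap, and of 7 compared entries on a list of spliceosomal RNAs, which also holds the snoRNA Rnu73b, 1 was higher and 0 lower, against 5.58% and 13.8% of all genes. Rn7sk, the 7SK RNA that holds back transcription elongation, had 1721, 3.03 and 14.4 rescaled FPKM in OGD/R 1, OGD/R 3 and control 1, and 95.9, 129 and 878 in OGD/R 2, control 2 and control 3. Rnu11, a component of the minor spliceosome, had 2240, 2857 and 2356 against 2249, 276 and 556, so OGD/R 2 lay among the rich libraries. Classes of short genes had low medians: the difference was -1.02 for 1185 microRNA genes, -1.11 for 872 snoRNA genes and -0.95 for 955 snRNA genes, against -0.20 for 20356 protein-coding genes. These short classes had a median of 1.0 to 1.5 fragments per gene and library, against 30.7 for protein-coding genes, and the rich libraries were the shallower ones. The part of depth in these medians was not tested. As shares of fragments outside the family, 2 of these 3 classes were higher on the rich side. MicroRNA genes, Mir6236 included, held 0.430%, 0.408% and 0.443% in OGD/R 1, OGD/R 3 and control 1. In OGD/R 2, control 2 and control 3 they held 0.319%, 0.284% and 0.306%. Mir6236 alone held 0.176%, 0.137% and 0.121% in the rich libraries and 0.030%, 0.0076% and 0.0019% in the poor ones, in the same order. The higher share of the microRNA class rests on this gene, and without it the sides overlap. For snRNA genes the shares were 0.251%, 0.255% and 0.274% against 0.220%, 0.192% and 0.213%. For snoRNA genes they were lower, 0.156%, 0.173% and 0.176% against 0.212%, 0.206% and 0.210%.

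Genes annotated as protein-coding took 75.7% to 78.4% of fragments on the rich side and 78.0% to 78.6% on the poor side. This class holds Gm10800, which alone took 3.82%, 3.14% and 1.23% in OGD/R 1, OGD/R 3 and control 1. In OGD/R 2, control 2 and control 3 Gm10800 took 1.65%, 0.165% and 0.502%. Without Gm10800 the coding share was lower in each rich library than in each poor one. At full depth the levels of coding genes were spread more widely in the rich libraries. These were also the shallower ones, and the part of depth in this spread was not tested. Among 13394 coding genes with enough fragments, the 95th percentile was 14.4, 12.6 and 12.6 times the 5th in OGD/R 1, OGD/R 3 and control 1, and 7.48, 10.2 and 7.63 times in OGD/R 2, control 2 and control 3. The difference between the sides varied with base composition in a curve. Its median was 0.02 in the lowest decile of GC content, -0.21 in decile 8 and -0.09 in the highest. Higher genes made up 13.4% of the lowest decile and 6.50% of decile 5. A straight line does not show this, as Pearson's r over these genes was -0.06 with GC content; with log2 length it was 0.00, and medians by decile of length lay between -0.15 and -0.11. On 20 chromosomes the higher genes were 7.30% to 10.7% and the lower ones 12.05% to 17.04% of well-covered genes, while 3 of 9 mitochondrial genes were higher and 0 lower.

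Most pairs of libraries of 1 side were more alike than pairs of different sides. At equal depth, Pearson's r of log2(FPKM + 1) over 16753 genes was 0.72 to 0.77 between rich libraries and 0.72 to 0.85 between poor ones, and 0.58 to 0.74 between a rich and a poor library, with medians of 0.73, 0.81 and 0.68. By label the ranges were 0.67 to 0.85 for libraries of the same label and 0.58 to 0.81 for different labels, with medians of 0.70 and 0.70. These values are across genes, which are not independent. Gm23935 and its copies did not enter, while well-covered genes that differ between the sides did.

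**Figure D4:**
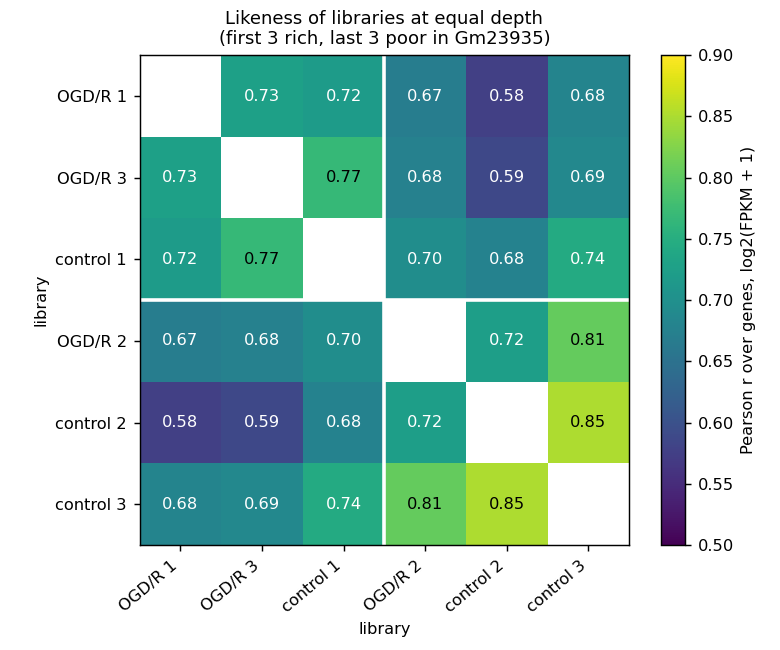
Each cell gives Pearson's r between 2 libraries over 16753 genes on the log2(FPKM + 1) scale after thinning to equal depth, with the 3 rich libraries first and the 3 poor ones last. Pairs of 1 side reach 0.72 to 0.85, and pairs across the sides lie between 0.58 and 0.74, the highest of them control 1 with control 3.

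The named protein-coding genes higher on the rich side belong to unrelated classes. They were the largest differences among 1167 genes with a usable name, at least 20 fragments and no overlap. Oaz1, the antizyme that limits polyamine synthesis, had 370, 415 and 282 rescaled FPKM in OGD/R 1, OGD/R 3 and control 1, and 72.6, 41.1 and 85.0 in OGD/R 2, control 2 and control 3. The lowest rich library was over 3 times the highest poor one, and the log2 difference was 2.45. Mir1982 lies in its exon on the same strand. Lrrc47, a leucine-rich repeat gene whose exons overlap Smim1 on the opposite strand, had 236, 260 and 87.2 against 26.5, 22.8 and 41.4. Pnck, a calmodulin-dependent protein kinase expressed in brain, had 218, 239 and 166 against 34.5, 22.2 and 43.7, a log2 difference of 2.63.

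Zfp839, a zinc finger gene, had 85.3, 117 and 75.0 rescaled FPKM in OGD/R 1, OGD/R 3 and control 1, and 21.8, 13.4 and 22.5 in OGD/R 2, control 2 and control 3. Nr4a1, an immediate-early nuclear receptor that activity and stress induce, had 44.2, 45.8 and 32.1 against 6.56, 5.75 and 13.6. Fkbp11, a peptidyl-prolyl isomerase of the secretory pathway, had 27.9, 20.6 and 27.5 against 14.5, 0 and 8.26. By the rule that picked them, control 1 lay with the OGD/R libraries of its side in these genes, and OGD/R 2 with the controls. For Pnck, limma gave an OGD/R minus control difference of 1.14 ± 0.96 (SE), and 0.30 ± 0.36 with the side as a term. Pnck was picked for sides that do not overlap, and the sides cross the labels with 2 libraries to 1. Both values are shaped by that choice and are no test of OGD/R.

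The named genes lower on the rich side were the largest of 1967 such genes and had few fragments each. Several of them are best known from other tissues, but as lists such genes lay near the background. Of 906 compared olfactory receptor genes 5.74% were higher and 11.7% lower without overlap, against 5.58% and 13.8% of all genes. Of the 34 genes of other tissues 2 were higher and 6 lower. The medians of these lists were -0.22 and -0.30, against -0.30 over all genes. Adh7, a stomach alcohol dehydrogenase, was counted 28, 3 and 14 times in OGD/R 1, OGD/R 3 and control 1, and 128, 142 and 101 times in OGD/R 2, control 2 and control 3. The olfactory receptor gene Olfr1411 was counted 6, 3 and 13 times against 76, 72 and 60, and Olfr154, which has 1 near-identical copy, 10, 1 and 7 times against 33, 93 and 50. Ugt2b36, a glucuronosyltransferase of the liver, was counted 0, 4 and 10 times against 50, 45 and 36. OGD/R 1 or OGD/R 3 was the lowest library in each of them.

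Trat1, a T-cell receptor adaptor, had 4.06, 2.93 and 15.4 rescaled FPKM in OGD/R 1, OGD/R 3 and control 1, and 39.2, 57.2 and 41.2 in OGD/R 2, control 2 and control 3. Avpi1, named for its induction by vasopressin, was counted 3, 6 and 18 times against 71, 95 and 45. Serpine3, a serpin family member, was counted 0, 7 and 8 times against 32, 49 and 36. Dnajc17 and Lrrc14b showed log2 differences of -2.80 and -2.73, and Spink7 one of -2.73, which was -1.0 without OGD/R 1, where Spink7 is listed at 0. Dnajc17, Lrrc14b, Adh7 and Serpine3 overlap exons of Zfyve19, Ccdc127, 0610031O16Rik and Ints6 on the opposite strand.

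**Figure D5:**
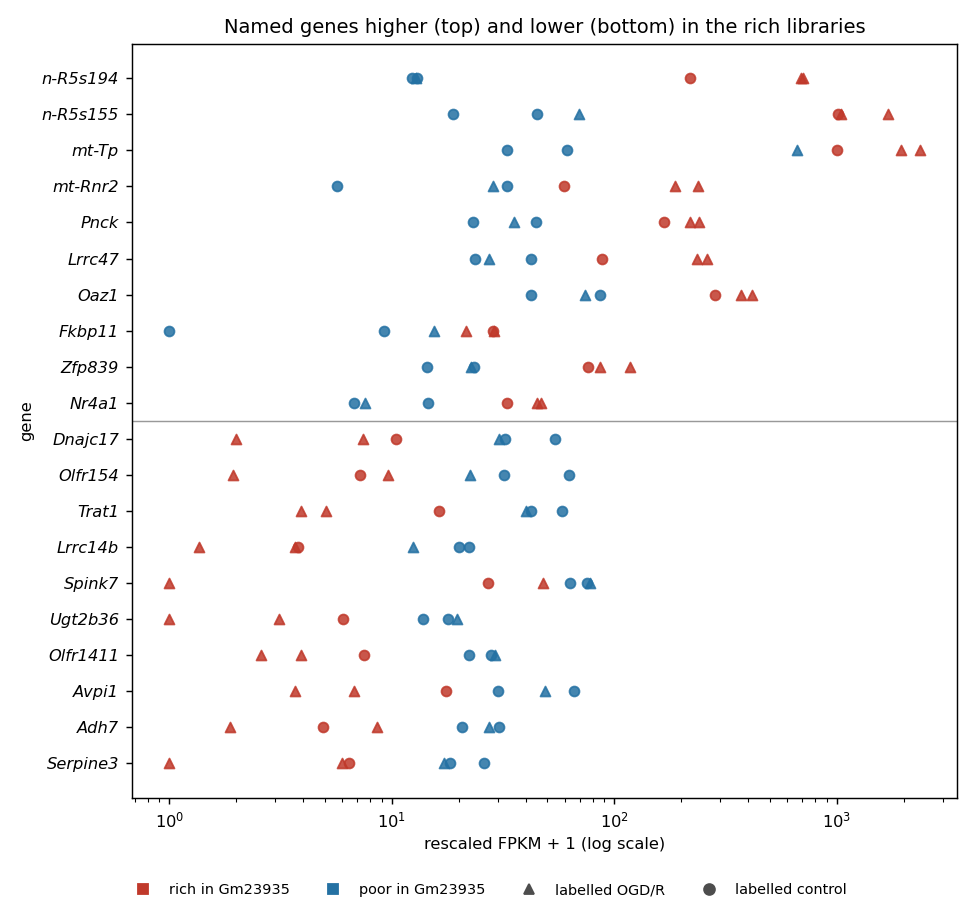
Points give the rescaled FPKM + 1 (log axis) of 20 named genes in each library, triangles for OGD/R and circles for control, red for rich and blue for poor, with the 10 genes higher on the rich side above the line and the 10 lower ones below it. The genes were picked for not overlapping, so the separation of colours is by construction; triangles and circles are mixed within both colours.

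Counts of cell type markers lay on both sides of the background. All 18 pan-neuronal markers had a mean of at least 1 FPKM, and so had all 34 genes of other tissues such as heart, liver and skin, so the label of cortical neurons is not set apart by these levels. The neuronal median exceeded that of the other tissues by 0.54, 0.78 and 0.21 on the log2 scale in OGD/R 1, OGD/R 3 and control 1, and by 0.02, 0.07 and 0.40 in OGD/R 2, control 2 and control 3. Of the pan-neuronal markers 2 were higher and 2 lower without overlap, against 5.58% and 13.8% of all genes, and 4 and 0 with centred libraries. Elavl4, a neuronal RNA-binding protein, had 97.3, 108 and 85.3 rescaled FPKM against 57.8, 34.5 and 46.3, without overlap. Uchl1, a neuronal ubiquitin hydrolase, and Stmn3, a tubulin regulator, overlapped with log2 differences of 0.12 and -0.26, whose signs turned with the deposited FPKM and with centred libraries, respectively.

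Of 13 markers of cortical and GABAergic neurons 1 was higher and 1 lower, of 10 astrocyte markers 1 and 2, of 10 oligodendrocyte lineage markers 1 and 3, and of 11 microglia markers 0 and 0. These counts changed with the scaling. In the same order they were 3 and 0, 2 and 0, 1 and 3, and 2 and 0 with centred libraries. With the deposited FPKM they were 0 and 5, 1 and 2, 1 and 5, and 0 and 1. Mbp, a myelin protein, had 10.8, 7.10 and 6.78 rescaled FPKM on the rich side and 17.7, 16.8 and 17.5 on the poor side. Slc1a3, the glial glutamate transporter, had 10.4, 15.8 and 11.9 against 18.3, 37.2 and 23.9. The astrocyte markers Gfap and Gja1 overlapped with log2 differences of 0.22 and 0.05 (-0.22 and -0.39 with the deposited FPKM). Of the 10 astrocyte markers 5 had a positive and 5 a negative difference, with a median of 0.01. Of 13 compared markers of vessels and fibroblasts 0 were higher and 2 lower, and of 7 compared erythroid markers 0 and 2. With centred libraries these were 1 and 1, and 0 and 2, and with the deposited FPKM 0 and 5, and 0 and 4. Alas2, the erythroid enzyme of haem synthesis, had 6.82, 1.97 and 8.92 against 15.2, 22.0 and 19.4. For comparison, 5.58% of all genes were higher and 13.8% lower.

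Of 10 nuclear long non-coding RNAs 4 were higher and 0 lower without overlap, with a median of 0.38 against -0.30 over all genes (-0.06 against -0.64 with the deposited FPKM). Malat1, which marks nuclear speckles, had 70.6, 60.0 and 45.5 rescaled FPKM in OGD/R 1, OGD/R 3 and control 1, and 31.8, 14.0 and 24.7 in OGD/R 2, control 2 and control 3. Of 83 compared cytosolic ribosomal protein genes 6 were higher and 2 lower (0 and 11 with the deposited FPKM), and in 21 of them OGD/R was above control on both sides, against 10.1% of all genes. Over all genes 5.58% were higher and 13.8% lower, and in the next lists the counts changed with the scaling. Of 22 targets of the hypoxia-inducible factor 0 were higher and 3 lower (3 and 2 with centred libraries). Ankrd37, such a target, had 32.0, 50.8 and 25.8 against 60.9, 69.8 and 86.2. Car9, a carbonic anhydrase and another target, overlapped with a log2 difference of 0.11 (-0.34 with the deposited FPKM). Of 18 glycolytic enzymes 0 were higher and 3 lower (4 and 1 with centred libraries), among them Ldha, lactate dehydrogenase A, with 51.0, 24.3 and 48.5 against 64.1, 119 and 88.0. Of 19 vesicle protein genes 0 were higher and 3 lower (5 and 1 with centred libraries), and Cd9, a tetraspanin used as a vesicle marker, overlapped with a log2 difference of -0.16 (0.13 with centred libraries). Of 12 progenitor and cell cycle genes 1 was higher and 0 lower (0 and 1 with the deposited FPKM), Hes1, a Notch target, with 41.0, 48.5 and 35.2 against 11.1, 21.8 and 8.69.

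The 7 calls of the labelled comparison were lost when the sides entered the fit, and also under most other changes of setting. With limma, Benjamini-Hochberg adjusted, 2 of 44120 genes (0.00453%) were higher in OGD/R and 5 (0.0113%) lower without a term for the side, and 0 with it; at an unadjusted p under 0.05 there were 2473 and 2645 genes. Mir744, a microRNA gene, had 38.3, 28.5 and 33.6 rescaled FPKM in control 1, 2 and 3 and was listed at 0 in all OGD/R libraries. Its fold change was -5.10 ± 0.43 (SE, log2, limma adjusted p = 0.0454) and -5.15 ± 0.42 (adjusted p = 0.226) with the side as a term. Mir7233 was listed at 0 in all controls and had 77.2, 35.3 and 33.4 in OGD/R 1, 2 and 3. On a gene of 1 kilobase, 1 fragment gives 0.467 (OGD/R 1) to 0.915 (control 1) deposited FPKM. Genes of 60 to 100 bases such as these gain many times more with each fragment, so the values above rest on few fragments.

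Of the library measures tested against the labels, none of 10 had an adjusted p under 0.4. The number of genes at equal depth was 37058 ± 2857 in OGD/R and 40004 ± 2542 in control (SD, n = 3; exact permutation test, two-sided, p = 0.2). OGD/R minus control was -1592 genes within the rich side and -1302 within the poor side. The 100 highest genes held 9.87% ± 3.90 and 6.30% ± 1.77 (exact permutation p = 0.2), with OGD/R higher by 3.66 percentage points on the rich and by 0.373 on the poor side.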

How the data were processed

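The authors deposited 1 table of FPKM values per library for 53379 Ensembl genes; their file names mention HTSeq, and aligner, build and annotation are not given in the sources used here. Per the labels' protocols, the library kit was Epi mini longRNA-seq. Names, lengths and coordinates came from GENCODE M21 (GRCm38), which held 53274 of the identifiers. With its longest transcript per gene, 95.95% of the values above 0 were whole fragments within 0.01, which gave the totals per library: 1092724 to 2141612 fragments on genes. Fragments not on genes are unknown, and shares carry counting error besides the spread between libraries.

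Libraries were ranked by Gm23935 and split into the top 3 and the bottom 3. The sides, members and lists were chosen with earlier results of these data known. FPKM was divided by the share of fragments outside Gm23935 and its copies, and genes averaging 1 deposited FPKM or more entered as log2(FPKM + 1). The rich minus poor difference is the difference of mean logs, and "without overlap" means that all libraries of 1 side lie beyond all of the other. OGD/R was compared with control in R 4.3.3 by the two-sided limma 3.58.1 test (trend in eBayes, threshold 0.05), and library measures by exact permutation over 20 assignments. Shares of the groups are shares outside the family in the text, and shares of all fragments were run as the other setting.

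Genes were named by a rule: the 5 most abundant outside the family, the 10 largest differences per direction among genes without overlap, with at least 20 fragments and no predicted or clone name, the highest members of a list, and named genes past the threshold of limma. Near-identical copies were found with blastn 2.17.0. limma was tested on simulated data. Other software was matplotlib 3.10.9, scipy 1.17.1, numpy 2.4.6, pandas 2.3.3 and Python 3.11.15. Alternatives are the scaling, pseudocount, filters, a replicate block, the side as a term, limma-voom and leaving out each library; thinning to equal depth was added after seeing the data.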

Additional observations from a re-analysis of the deposited data

How the results depend on the processing

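The rich minus poor median of -0.30 was -0.64 with the deposited FPKM and -0.64 with only the copies left out, -0.010 with centred libraries, -0.42 with a pseudocount of 0.1, -0.21 at a mean FPKM of at least 5 and -0.12 at a mean of at least 20 fragments. The 2462 higher genes became 673 with the deposited FPKM, 673 with only the copies left out, 5335 with centred libraries and 1625 at 20 fragments, and the 6097 lower genes became 10119, 10118, 3679 and 2478, and 3650 at 5 FPKM. Thinning to equal depth, added after seeing the data, gave 2206 and 5035. Leaving out a library leaves fewer values that could overlap, and gave 3109 to 4488 higher and 7827 to 9743 lower genes, with a median of -0.32 to -0.26. The median of the rRNA-overlapping entries minus that of all genes was 1.45 to 2.51 with a library left out.

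The 7 limma calls between OGD/R and control became 0 with a pseudocount of 0.1, no filter, a filter at 5 FPKM, no variance trend, the side as a term or any library left out (0 to 0), and 50 (19 higher, 31 lower) with limma-voom, which kept 0 of the 7. The deposited FPKM and leaving out only the copies gave 1 higher gene each. The replicate block gave 0 calls. Whether the replicate numbers pair the libraries could not be told: deviations of same-numbered libraries correlated at 0.13, 0.30 and -0.17 over genes. The first 2 of these pairs lie within a side and the last crosses the sides. Differently numbered pairs correlated at 0.26 and 0.22 within a side and at -0.38 to -0.06 across the sides. The check thus cannot separate pairing from the side. The difference in the share of protein-coding genes was -0.32 percentage points and 0.61 without OGD/R replicate 3; over the libraries left out it ran from -0.85 to 0.61. The causes of these changes were not tested. Depth limits genes under 20 fragments most, and 6 libraries cannot reach an exact p under 0.1.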
